A study of Mus musculus with 12 samples.

Results

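The carnitine shuttle carries long-chain fatty acids into mitochondria, and its 6 genes Cpt1a, Cpt1b, Cpt2, Crat, Slc25a20 and Slc22a5 were followed in mouse soleus muscle. The members were named by role and matched by symbol, and all 6 were found among the 28997 genes of the tables. RNA of 12 mice was sequenced after selection of mRNA, with 3 mice in each of 4 labelled groups: Cdh5cre-WT on chow, Cdh5Cre-NOX1CKO on chow, Cdh5cre-WT on high fat diet and Cdh5Cre-NOX1CKO on high fat diet, each for 8 weeks. All 4 groups are labelled with a Cre that the Cdh5 promoter drives in endothelial cells, so the conditional loss of the NADPH oxidase Nox1 is directed at the vessels and not at the muscle fibres, while whole muscle was measured. The ages of the mice are not given in the sources used here. The authors deposited 4 tables of comparisons between groups coded G1 to G4 (G3 and G2 each against G1, and G4 against each of G2 and G3). The labels do not say which code stands for which labelled group, so every difference below is given between codes and is read as an effect of neither diet nor genotype.

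Long-chain acyl-CoA cannot cross the inner mitochondrial membrane. A carnitine palmitoyltransferase of the outer membrane (CPT1) hands the acyl group to carnitine, the carrier encoded by Slc25a20 exchanges the acylcarnitine for free carnitine, and CPT2 on the matrix side restores acyl-CoA for beta-oxidation. Cpt1b encodes the muscle form of CPT1 and Cpt1a the liver form, which many other cell types also use, and malonyl-CoA inhibits both. Slc22a5 encodes the sodium-dependent transporter that brings carnitine into the cell, and Crat encodes the acetyltransferase that moves acetyl and other short acyl groups onto carnitine. Slow, oxidative muscle such as the soleus relies on this route for fuel.

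The tables gave a total per gene and a difference per comparison but no value per mouse, so values for single mice and SDs could not be given. Totals over all genes came to 298863066 scaled reads, a mean of 24905255 per library. Group levels were rebuilt from each gene's total and its log2 differences, and the standard errors are those implied by the deposited log2 values and p-values. The 10 markers listed for slow fibres were abundant, with summed levels of 1126350 to 1280360 scaled reads per library. This list includes Myh2, the myosin heavy chain of fast type IIa fibres, which had the largest total of the 10. The median log2 difference of genes with a total of at least 1200 lay between -0.00045 and 0.01 in all 4 comparisons.

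Per kilobase of transcript, Cpt1b stood highest among the shuttle genes and Cpt1a lowest. The mean level over the 12 libraries was 4746 scaled reads per library per kilobase for Cpt1b, 3861 for Crat, 1904 for Slc25a20, 1267 for Cpt2, 135 for Slc22a5 and 83.4 for Cpt1a. This order was the same in each of the 4 groups. Without division by length, Crat had a higher mean level than Cpt1b, 16309 against 13740 scaled reads per library. The order of these genes thus depends on the transcript lengths used, 4.224 kilobases for Crat and 2.895 for Cpt1b. The muscle form of CPT1 exceeded the liver form per kilobase by a ratio of 61.3 (G1), 76.8 (G2), 52.6 (G3) and 47.1 (G4). The dispersion that the deposited standard errors imply corresponds to a coefficient of variation of 6.16% for Cpt1b, 6.40% for Slc25a20, 6.41% for Cpt2, 7.37% for Crat, 10.2% for Slc22a5 and 15.7% for Cpt1a. The scarcest transcripts thus had the largest implied coefficients, and a given difference is hardest to detect for Cpt1a and Slc22a5. These coefficients come from the fit behind the deposited p-values and are no observed spread between mice, which the deposited values do not give.

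**Figure D1:**
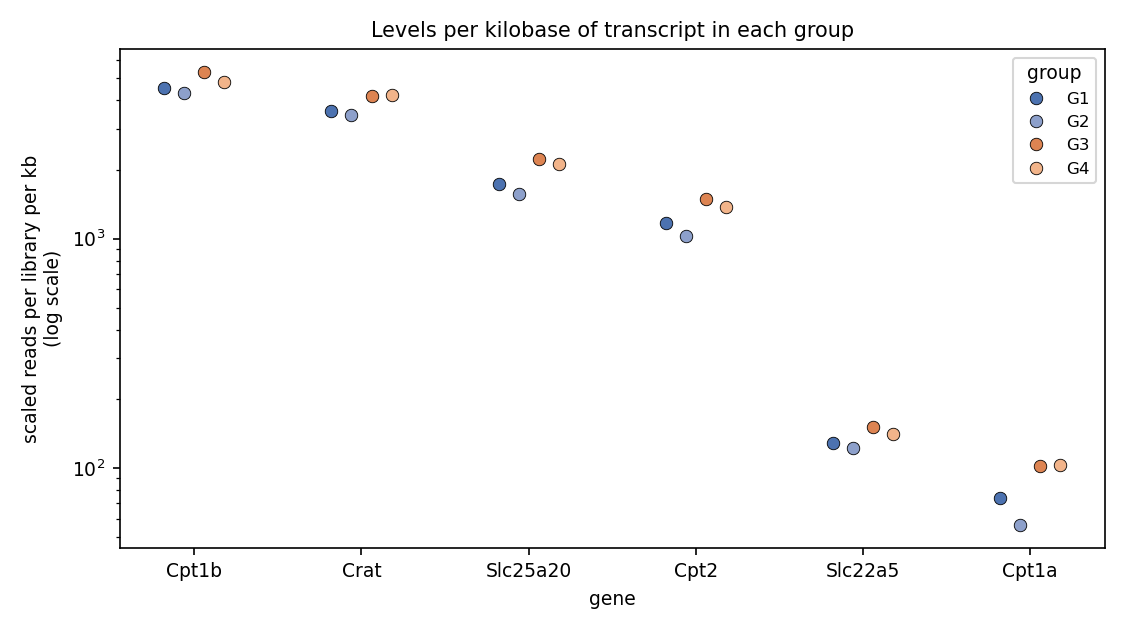
Levels of the 6 genes per kilobase of transcript on a log axis, with 1 point per group (colours, G1 to G4). Cpt1b and Crat lie at 3441 or above in every group, whereas Slc22a5 and Cpt1a lie between 56.2 and 151.

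The genes lie on 6 different chromosomes, and some share sequence with others. On GRCm38 (GENCODE M21, all annotated as protein coding) they are Cpt1a at chr19:3322334-3385733 (plus strand, 19 exons), Cpt1b at chr15:89416405-89425863 (minus, 19 exons), Cpt2 at chr4:107903981-107923610 (minus, 5 exons), Crat at chr2:30400471-30415813 (minus, 15 exons), Slc25a20 at chr9:108662088-108684641 (plus, 9 exons) and Slc22a5 at chr11:53864542-53891660 (minus, 10 exons). The values of Cpt1b are uncertain to the extent that its reads were split with Gm44502, an annotated gene that spans Cpt1b and the neighbouring choline kinase gene Chkb. It shares 2745 of the 2895 bases of the Cpt1b transcript with no mismatch, and its total in the authors' deposited table was 3.43% of that of Cpt1b. Slc22a5 shares 2907 of 3062 transcript bases with its paralog Slc22a21 at 88.8% to 99.3% identity, and the total of Slc22a21 was 4.06% of its own. Crat overlaps 59 bases of Dolpp1 and 1623 bases of the antisense gene Gm16323 on the opposite strand, with totals of 1199 and 9.48 in the authors' deposited table, and whether strand was used in counting is not given in the sources. The search took the longest principal transcript of each member and needed an exact run of 28 bases. It found no other GENCODE gene at an identity of at least 85%, apart from 372 bases of Slc22a5 that match its paralog Slc22a4. Short or more broken matches could be missed.

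RefSeq promoter sequences were matched for 4 of the 6 members (GRCm38.p6). The 250 bases before the start are printed for the 3 genes that rose in a deposited comparison and for Slc22a5, which passed no test, so that their composition can be compared. Capitals mark, on either strand, a CCAAT box, a GC box with the letters GGGCGG, or the receptor hexamer AGGTCA, copies of which nuclear receptors such as PPAR bind in pairs. The GENCODE models of Cpt1a, Cpt2 and Slc25a20 begin before these RefSeq starts. The lines give chr19:3323051-3323300 on the plus strand, chr4:107923590-107923839 on the minus strand, chr9:108661886-108662135 on the plus strand and chr11:53891704-53891953 on the minus strand.
Cpt1a: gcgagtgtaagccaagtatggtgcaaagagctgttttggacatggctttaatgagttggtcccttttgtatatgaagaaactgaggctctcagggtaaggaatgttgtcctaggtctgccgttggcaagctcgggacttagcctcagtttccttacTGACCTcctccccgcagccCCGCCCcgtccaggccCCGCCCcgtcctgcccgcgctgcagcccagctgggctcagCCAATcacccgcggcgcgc
Cpt2: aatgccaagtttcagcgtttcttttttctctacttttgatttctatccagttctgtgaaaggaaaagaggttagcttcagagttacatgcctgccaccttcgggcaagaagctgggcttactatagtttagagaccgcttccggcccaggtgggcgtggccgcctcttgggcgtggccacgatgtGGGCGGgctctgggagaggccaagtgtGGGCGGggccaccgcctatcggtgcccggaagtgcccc
Slc25a20: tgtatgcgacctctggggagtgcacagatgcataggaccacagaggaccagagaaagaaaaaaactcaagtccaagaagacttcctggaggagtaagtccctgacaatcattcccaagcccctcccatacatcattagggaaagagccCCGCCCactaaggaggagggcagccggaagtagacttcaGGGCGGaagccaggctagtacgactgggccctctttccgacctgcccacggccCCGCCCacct
Slc22a5: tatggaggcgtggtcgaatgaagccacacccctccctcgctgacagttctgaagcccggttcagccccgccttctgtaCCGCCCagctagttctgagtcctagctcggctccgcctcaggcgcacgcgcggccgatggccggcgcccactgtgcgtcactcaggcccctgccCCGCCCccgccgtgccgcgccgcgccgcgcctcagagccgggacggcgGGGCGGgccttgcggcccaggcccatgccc
All 4 windows held a GC box, with 2 in Cpt1a, 2 in Cpt2, 3 in Slc25a20 and 3 in Slc22a5, against 32.7% of 32851 promoter windows of the same length with at least 1. The receptor hexamer was found in Cpt1a, 94 to 89 bases before the start on the minus strand, where 14.0% of all windows held it, and a CCAAT box in Cpt1a, 19 to 15 bases before the start, where 33.8% did. The marked motifs did not overlap each other. None of these 4 windows held, on either strand, a TATA box with the letters TATAAA, an E-box with the letters CACGTG or a cyclic AMP element with the letters TGACGTCA, which 12.4%, 6.02% and 1.55% of all windows held. GC content was 59.6% for Cpt1a, 56.8% for Cpt2 and Slc25a20 and 73.6% for Slc22a5, against a median of 52.4%. A match is a run of letters and not a shown binding site.

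In G3 against G1, all 6 genes were higher in G3, and the carrier and the matrix-side transferase rose beyond the test. Slc25a20 stood at 3072.5 scaled reads per library in G1 and 3954 in G3 (implied standard errors 118 and 151). It rose by a log2 of 0.36 (adjusted p = 0.00344, as in the authors' deposited table), a ratio of 1.29 with a 95% interval of 1.16 to 1.43. Cpt2 stood at 2777 in G1 and 3541 in G3. It rose by 0.35 (adjusted p = 0.00600, as in the authors' deposited table), a ratio of 1.28 with an interval of 1.15 to 1.42. The standard errors come from the same deposited log2 values and p-values, so the distance between the levels is no further evidence.

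The enzymes of the outer membrane, the acetyltransferase and the carnitine transporter did not pass in this comparison. For the muscle form Cpt1b, from 13090.5 to 15429, the log2 was 0.24 (adjusted p = 0.328, as in the authors' deposited table), and its interval of the ratio was 1.07 to 1.30. The liver form Cpt1a had the largest log2 of the 6, at 0.46, but also the largest standard error, 0.19 (adjusted p = 1.0, as in the authors' deposited table). Crat had a log2 of 0.22 (ratio 1.17, interval 1.04 to 1.31) and Slc22a5 of 0.24 (ratio 1.18, interval 0.984 to 1.41) in the authors' deposited table, both with an adjusted p of 1.0. In all, 2 of 6 members were called higher, where 0.21% of 28997 genes were called in either direction. These 28997 include genes with a total under 100, whereas 14539 genes were given an adjusted p in G4 against G2. The shares of these 2 comparisons are thus not directly comparable. The median log2 in G3 against G1 was 0.29 against 0.00032 over 15494 genes whose total was 100 or more.

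**Figure D2:**
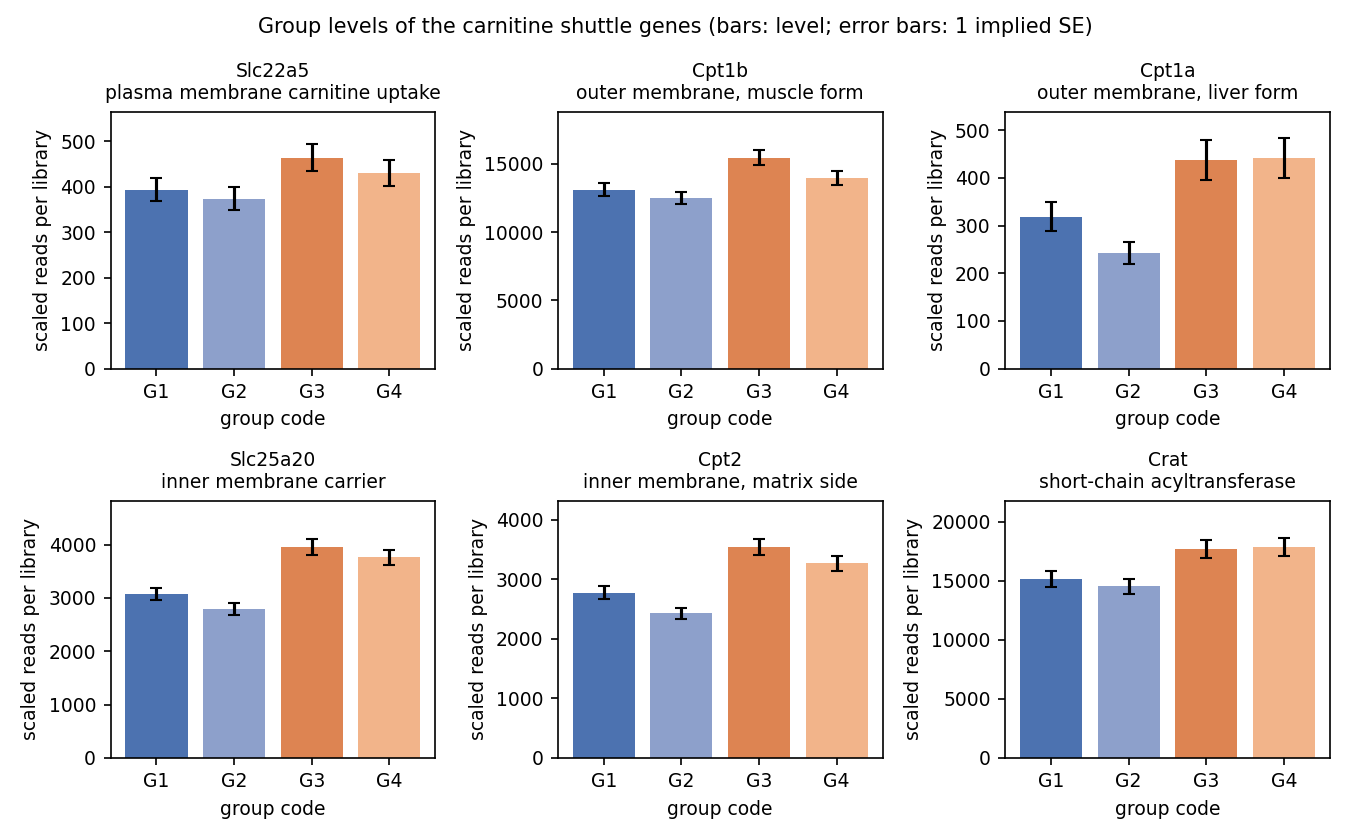
Level of each gene in groups G1 to G4 in scaled reads per library, rebuilt from the deposited totals and log2 values; bars start at 0 and error bars are 1 implied standard error. In every panel G2 is the lowest group, and G3 and G4 lie above G1.

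In G4 against G2, which shares no group with the comparison above, all 6 genes were again higher, and 3 rose beyond the test. Slc25a20, from 2790.8 to 3762 scaled reads per library, rose by a log2 of 0.43 (adjusted p = 1.85e-05, as in the authors' deposited table), a ratio of 1.35 (95% interval of the log2 0.28 to 0.58). Cpt2, from 2431 to 3269.9, rose by 0.43 (adjusted p = 2.68e-05, as in the authors' deposited table), a ratio of 1.34 (interval of the log2 0.27 to 0.58). These genes, which encode the consecutive inner membrane steps, had log2 values that differed by 0.01 in G3 against G1 and by 0.0031 in G4 against G2. Whether their mice varied together could not be examined without values per mouse.

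The third call in G4 against G2 was Cpt1a, the liver form. Its level was 243 scaled reads per library in G2 and 442 in G4 (implied standard errors 23.8 and 41.8). It rose by a log2 of 0.86 (adjusted p = 0.00251, as in the authors' deposited table), a ratio of 1.82 with an interval of 1.39 to 2.38. The muscle form Cpt1b, from 12496.5 to 13945, had a log2 of 0.16 (adjusted p = 0.441, as in the authors' deposited table), and an interval of the ratio of 1.01 to 1.23. The gap of 0.71 between the log2 values of Cpt1a and Cpt1b was not tested, because both were measured in the same mice and their covariance is not in the tables. G2 held the lowest of the 4 group levels of Cpt1a, below the 318 of G1.

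Crat lay at the threshold in G4 against G2. From 14535 to 17847 scaled reads per library, its log2 was 0.30 (adjusted p = 0.0506, as in the authors' deposited table), a ratio of 1.23 with an interval of 1.09 to 1.38. When p-values were adjusted over genes with a total of at least 600 only, its adjusted p was 0.0445. Slc22a5, from 374 to 429, had a log2 of 0.20 (adjusted p = 0.718, as in the authors' deposited table), and an interval of the ratio from 0.959 to 1.38. In all, 3 of 6 members were called higher, where 1.38% of 14539 genes given an adjusted p were called in either direction, and the median log2 was 0.36 against 0.00034 over genes with a total of at least 100.

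**Figure D3:**
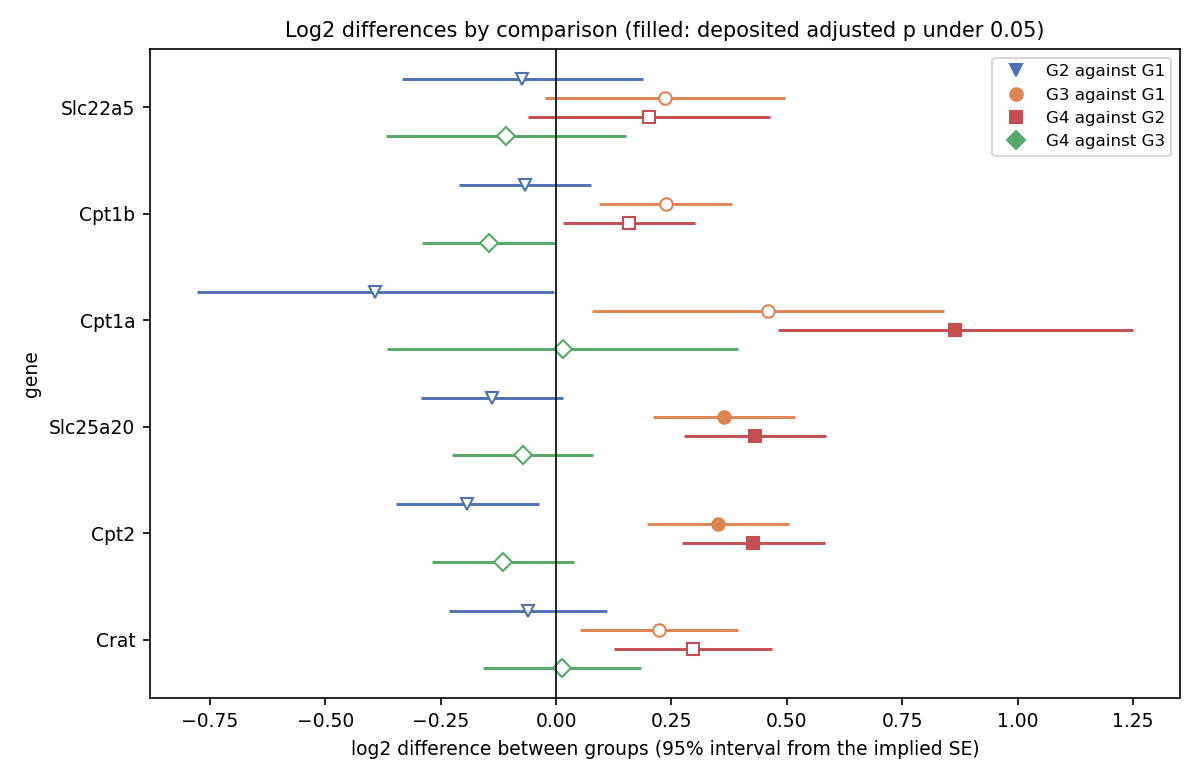
Log2 difference of each gene in the 4 comparisons with its 95% interval; filled markers passed a deposited adjusted p of 0.05. The filled markers are Slc25a20 and Cpt2 in G3 against G1 and in G4 against G2, and Cpt1a in G4 against G2.

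The average of G3 against G1 and G4 against G2 uses all 4 groups and carries a smaller error than either. With p-values rebuilt from the deposited ones and adjusted by the Benjamini-Hochberg procedure over 15494 genes, 5 of 6 members were called higher, where 1.65% of genes were called. The mean log2 was 0.40 for Slc25a20 (standard error 0.06, adjusted p = 3.80e-10) and 0.39 for Cpt2 (0.06, adjusted p = 1.34e-09). It was 0.66 for Cpt1a (0.14, adjusted p = 3.37e-04), 0.26 for Crat (0.06, adjusted p = 0.00357) and 0.20 for Cpt1b (0.05, adjusted p = 0.0133). Slc22a5 had 0.22 with a standard error of 0.09, an unadjusted p of 0.0201 and an adjusted p of 0.334. These averages rest on the same values as the comparisons above and are no further evidence. For Cpt1b and Crat the averaged value passed where neither comparison did.

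No member's difference in G4 against G2 was shown to differ from that in G3 against G1. The interaction, which is the first minus the second, was called for 0 of 6 members by this normal test on the deposited values, with none at an unadjusted p under 0.05, where 0.00645% of 15494 genes were called. It was 0.41 for Cpt1a with a 95% interval of -0.14 to 0.95 (unadjusted p = 0.142), an interval that holds 0 and also values larger than the log2 in G3 against G1. For Slc25a20 it was 0.07 with an interval of -0.15 to 0.28, and for Cpt2 0.08 with an interval of -0.14 to 0.29. Cpt1b had -0.08 with an interval of -0.28 to 0.12, Crat 0.07 with -0.17 to 0.32 and Slc22a5 -0.04 with -0.40 to 0.33.

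In G2 against G1, all 6 members were listed with a negative log2 and none was called. The authors' deposited table for this comparison lists only genes whose log2 is 0 or below, 15652 in all, of which 0.00639% were called. Cpt1a had the lowest log2, -0.39, with an unadjusted p of 0.0473 (adjusted p = 1.0, as in the authors' deposited table). Cpt2 had -0.19 with an unadjusted p of 0.0148, and Slc25a20 -0.14 with 0.0765, in the authors' deposited table. Slc22a5, Cpt1b and Crat had -0.07, -0.07 and -0.06 in the authors' deposited table. In this comparison 2 members were therefore at an unadjusted p under 0.05, and neither held after adjustment.

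In G4 against G3, 4 members had a negative log2, 2 a positive one, and none was called, where 0.0394% of 17752 genes were called. Cpt1b had -0.15 with an unadjusted p of 0.0465, Cpt2 -0.11, Slc22a5 -0.11 and Slc25a20 -0.07 in the authors' deposited table. Cpt1a and Crat had 0.01 and 0.01 in the authors' deposited table. Each adjusted p was 0.9997 in the authors' deposited table. The mean of this comparison and G2 against G1 was negative for all 6 members, from -0.19 for Cpt1a to -0.02 for Crat, and called for 0 of 6, where 0.0452% of 15494 genes were called. This mean was -0.15 for Cpt2 (unadjusted p = 0.00573, adjusted p = 0.9995). It was -0.11 for Cpt1b (unadjusted p = 0.0400, adjusted p = 0.9995).

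Ordered by level, G2 was the lowest group for each of the 6 genes, followed by G1. G3 was highest for Cpt1b, Cpt2, Slc25a20 and Slc22a5, and G4 for Cpt1a and Crat. Neighbours in this order were set apart by 95% intervals not adjusted for their number. The step from G1 to the next group up excluded 0 for Slc25a20 (log2 0.29 for G4 over G1, interval 0.14 to 0.45), Cpt2 (0.24, 0.08 to 0.39), Crat (0.22 for G3 over G1, 0.05 to 0.39) and Cpt1a (0.46 for G3 over G1, 0.08 to 0.84). For Cpt1b it did not (0.09 for G4 over G1, -0.05 to 0.23). No neighbouring groups of Slc22a5 differed beyond their intervals. G3 and G4 differed beyond the interval for Cpt1b alone among the 6 (0.15, 0.0024 to 0.29), and G2 and G1 for Cpt2 and Cpt1a. G4 against G1 was not among the deposited comparisons and was rebuilt with the implied dispersion.

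Other carnitine genes did not pass any of the 4 comparisons. At most 1.38% of all genes were called in any of these, so a short list without calls lies near that share. Of 10 such genes, 9 were in the tables and 7 had a total of at least 100, and Tmlhe was not found by symbol. Cpt1c, the brain form of CPT1, had log2 values of 0.03 in G3 against G1 and -0.09 in G4 against G2 at a total of 360 in the authors' deposited table. Crot, the peroxisomal carnitine octanoyltransferase, had -0.02 and -0.12 in the authors' deposited table. In G4 against G3 Cpt1c and Crot had -0.09 and -0.15, and in G2 against G1 Crot had -0.04, in the authors' deposited table, with a rebuilt 0.02 for Cpt1c. The related transporter gene Slc22a4 had 0.27 and 0.45 in G3 against G1 and G4 against G2, the highest there among genes of the list with a total of at least 100, with adjusted p-values of 1.0 and 0.655 in the authors' deposited table. Among genes of this list with a total of at least 600, the widest values elsewhere were 0.44 for Slc25a29 in G2 against G1, rebuilt because that table does not list it, and -0.33 for Slc16a9 in G4 against G3 in the authors' deposited table. The list median was 0.03 in G3 against G1 and -0.09 in G4 against G2.

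Many genes that act before and after the shuttle rose in the same comparisons. Over all genes given an adjusted p, 0.21% were called in G3 against G1 and 1.38% in G4 against G2. Among 10 genes of fatty acid entry and activation, 3 rose in G3 against G1 and 4 in G4 against G2, with medians of 0.28 and 0.39. They included the acyl-CoA binding protein Dbi (0.58 and 0.75), the cytosolic fatty acid binding protein Fabp3 (0.59 and 0.84) and the acyl-CoA synthetase Acsl1 (0.43 and 0.52) in the authors' deposited table. The fatty acid translocase Cd36 rose by 0.41 in G4 against G2, and had 0.32 in G3 against G1 (adjusted p = 0.00786 and 0.346, as in the authors' deposited table). Acsl6 went the other way, with -0.33 in G3 against G1 and -0.25 in G4 against G2, and was called in neither. Among 15 genes of beta-oxidation in the matrix, 11 rose in each comparison, with medians of 0.34 and 0.39, led by the dienoyl-CoA reductase Decr1 with 0.67 and 0.62 in the authors' deposited table. Hadhb, the beta subunit of the trifunctional protein, rose by 0.48 and 0.50, Hadh by 0.39 and 0.39, and the acyl-CoA dehydrogenases Acadl and Acadvl by 0.37 and 0.40 and by 0.34 and 0.37, in the authors' deposited table. Echs1 had the lowest values of these matrix genes, 0.06 in G3 against G1 and -0.02 in G4 against G2, and was called in neither. The lowest values against G1 in G2 were -0.32 for Fabp3 and -0.15 for Etfdh, neither called, in the authors' deposited table. In G4 against G3 the lowest were Acsl1 with -0.14 and Decr1 with -0.15, neither called, in the authors' deposited table. Slc25a20 and Cpt2 lay within the range of these matrix genes, and Cpt1b lay below both medians. Earlier results on these data were known when the lists were drawn up, so their direction is not independent support.

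Genes that set malonyl-CoA, the inhibitor of CPT1, gave 1 call among 10, in G4 against G2, where 1.38% of 14539 genes were called. Mlycd, the decarboxylase that removes malonyl-CoA, rose by 0.65 in G4 against G2 (adjusted p = 0.00408, as in the authors' deposited table). It had 0.20 against G1 in G3 and -0.41 against G1 in G2, each with an adjusted p of 1.0, as the authors' deposited table gives them. Like all the shuttle genes, Mlycd had its lowest level in G2. Acacb, the mitochondria-bound acetyl-CoA carboxylase of muscle, had 0.25 and 0.15 in G3 against G1 and G4 against G2, with adjusted p-values of 0.285 and 0.537 in the authors' deposited table. Acaca, its cytosolic relative, had -0.12 and -0.27 in these comparisons in the authors' deposited table. In the average of both comparisons Mlycd and Acacb rose (0.43 and 0.20) and Prkag3 fell (-0.97), where 1.65% of 15494 genes were called. Prkag3, the AMP-activated kinase subunit of fast fibres, had the largest absolute values of the list, -1.12 and -0.82, with adjusted p-values of 0.305 and 0.327 in the authors' deposited table, and Prkab2 had -0.36 in G4 against G3. There Acaca, Acacb and Mlycd had -0.06, -0.09 and 0.04 in the authors' deposited table, and the rebuilt values of Acaca and Acacb in G2 against G1 were 0.08 and 0.01.

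Among 11 genes of the acetyl-CoA side, on which Crat acts, none was called in any comparison. Over all genes, 0.00639% (G2 against G1) to 1.38% (G4 against G2) were called. The absence of calls in so short a list is therefore no result about these genes. The list holds pyruvate dehydrogenase subunits, citrate synthase and thioesterases. Its median log2 was 0.01 in G3 against G1 and 0.07 in G4 against G2. Pdha1, the E1 alpha subunit of pyruvate dehydrogenase, had 0.00 and 0.10, and citrate synthase Cs 0.02 and 0.06, in the authors' deposited table. The widest values were 0.19 for Acss1 in G3 against G1, 0.16 for the citrate carrier gene Slc25a1 in G4 against G2 and 0.22 for Acot9 in G4 against G3 in the authors' deposited table, and 0.17 for Acly in G2 against G1, which was rebuilt.

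**Figure D4:**
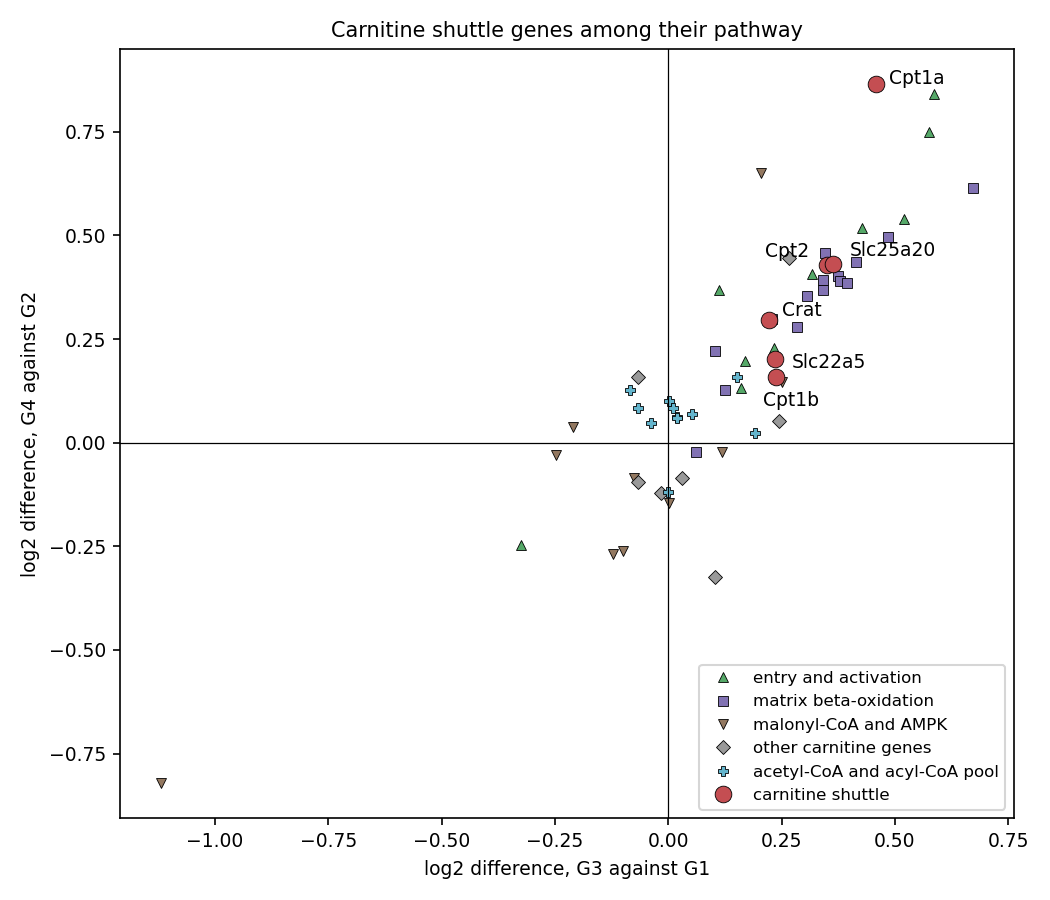
Log2 difference in G3 against G1 (horizontal) and in G4 against G2 (vertical) for the shuttle genes (large red circles) and 5 lists of related genes with a total of at least 100. Slc25a20 and Cpt2 lie among the matrix beta-oxidation genes, and Cpt1a lies highest of all plotted genes on the vertical axis at 0.86.

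Nuclear receptors and coactivators known to act on shuttle genes gave 0 calls among 10 genes with a total of at least 100 in each of the 4 tables. No more than 1.38% of all genes were called in any of these, so 0 calls among 10 lies near that share. Ppargc1b had the lowest log2 in G2 against G1, -0.31, and Ppargc1a the highest in G4 against G3, 0.81, in the authors' deposited table. Ppara had -0.07 and 0.07, Ppard -0.00 and -0.18, and the coactivator Ppargc1a -0.44 and 0.61 in G3 against G1 and G4 against G2 in the authors' deposited table. Ppara and Ppard had 0.20 and 0.03 in G4 against G3 and Ppargc1a -0.24 in G2 against G1 in the authors' deposited table, with a rebuilt 0.07 and 0.20 for Ppara and Ppard in G2 against G1. Other well known PPAR targets rose in 2 of 8 cases in G3 against G1 and in 7 of 8 in G4 against G2. The shares called over all genes were 0.21% and 1.38%. The thioesterase gene Acot1 had log2 values of 1.24 and 1.79, both called, per the authors' deposited table. Acot2, a mitochondrial thioesterase, stood at 1321, 949.7, 2304 and 2265 scaled reads per library in G1 to G4 and was called in both. The lipid droplet gene Plin2 rose by 0.64 in G4 against G2. Angptl4, an inhibitor of lipoprotein lipase, rose by 4.48 in G4 against G2 and had -2.96 in G2 against G1 (adjusted p = 1.0) in the authors' deposited table. Ucp3, a mitochondrial carrier of muscle, fell by 1.84 in G2 against G1 and rose by 1.82 in G4 against G2, with -0.09 in G3 against G1, in the authors' deposited table. In G4 against G3 none of these 8 genes was called.

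The genes with the most similar group pattern were found by Euclidean distance over the 4 mean-centred log2 group levels, among 10166 other genes with a total of at least 1200. Over 4 group values such nearness is a description only. The nearest to Slc25a20 were Eci2, Hadha and Colgalt2, at distances of 0.03 each. The nearest to Cpt2 were Cd36 (0.03), the mitochondrially encoded mt-Atp8 (0.04) and Plbd1 (0.04). The nearest to Cpt1a were Gpat3, Gja1 and Fabp3, at 0.09 each.

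Some genes listed as markers of other cells were called in G3 against G1 or G4 against G2. Among all genes with an adjusted p, the share called was 0.21% in G3 against G1 and 1.38% in G4 against G2. It was 0.0394% in G4 against G3, and 0.00639% of the genes listed in G2 against G1. The share of all genes with a positive log2 was 49.7% in G2 against G1 and 50.9% in G4 against G3. That share was 50.1% in both G3 against G1 and G4 against G2. Whole muscle does not show which cells made a marker's RNA. Fewer cells of a type and less RNA per cell cannot be told apart in it. Adipocyte markers had a median log2 of 0.69 in G4 against G2, with 7 of 9 positive and 3 called. The calls were Fabp4 (0.37), Lipe (0.75) and Cidea (0.82) in the authors' deposited table. Adipoq, Plin1, Cidec and Lep were positive but not called there, and Retn and Cfd were negative. In G3 against G1 the median of adipocyte markers was -0.20, with 2 of 9 positive and 1 called. The marker called in both was Cidea, which is also on the brown adipocyte list. The summed level of the 10 adipocyte markers was 7154, 5519.7, 6348 and 7307 scaled reads per library from G1 to G4. Fabp4 (53552) and Lipe (12347) had the largest totals of the 10 in the authors' deposited table. The adipocyte sum was lowest in G2, as were all 6 shuttle genes and the sums of endothelial, brown adipocyte, fibroblast and erythroid markers. Endothelial markers were positive in 8 of 8 in G4 against G2 with a median of 0.21 and none called, and their summed level was 13875, 13198.5, 14349 and 15269 in G1 to G4. The liver form Cpt1a is known from such cells too, and their part in its value was not tested. Fast fibre markers were negative in 11 of 11 in both G3 against G1 and G4 against G2, with medians of -0.38 and -0.21 and none called. In the average of these 2 comparisons 1 of the 11 was called lower, where 1.65% of genes were called. Their summed levels were 971225, 874543, 731646 and 794505 in G1 to G4, and the part of fibre type was not tested. The slow fibre list, which includes Myh2 of fast type IIa fibres, had medians of -0.01 and -0.19, with none called. Fibroblast markers had medians of 0.24 and 0.13 with 1 called in G3 against G1, macrophage markers -0.06 and -0.11 and erythroid genes 0.02 and 0.40 with none called. In G2 against G1, where all 6 shuttle genes were lower, adipocyte markers were positive in 0 of 9 (median -0.60), macrophage markers in 0 of 8 (-0.39), erythroid genes in 0 of 5 (-0.70) and endothelial markers in 1 of 8 (-0.13), while slow fibre markers were positive in 9 of 10 (0.24). In G4 against G3, macrophage markers were positive in 1 of 8 (-0.34), fibroblast markers in 1 of 6 (-0.23) and erythroid genes in 0 of 5 (-0.21), and endothelial markers in 8 of 8 (0.09) and fast fibre markers in 11 of 11 (0.09). None of these markers was called in those 2 comparisons, and their part in the values of the shuttle genes was not tested. Of the brown adipocyte markers, Ucp1 was not found by symbol in the tables and Elovl3 had a total under 100. In G3 against G1 and G4 against G2, Cidea rose by 0.83 and 0.82 and Dio2 had 0.64 and 0.11 in the authors' deposited table. Of the hepatocyte markers, Cyp2e1, a cytochrome P450, was the only gene with a total of at least 100. Serpina1c was not found by symbol in the tables. Cyp2e1 stood at 337, 149, 66.2 and 104 scaled reads per library from G1 to G4. It fell by 2.35 in G3 against G1 (adjusted p = 0.0148, as in the authors' deposited table), opposite in direction to the shuttle genes, and had -0.52 in G4 against G2 (adjusted p = 0.886). Its part in the values of the shuttle genes was not tested. The defining markers Alb, Apoa1 and Ttr had totals of 31.6, 0.956 and 0.939 over the 12 libraries in the authors' deposited table.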

How the data were processed

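Soleus RNA of 12 mice was sequenced with a stranded mRNA library kit, per the labels' protocols. Bowtie2 2.1.0, RSEM 1.2.15 and edgeR were used with mm10 or GRCm38, per the submitters' processing notes. These notes assign no tool a role, so the origin of the deposited p-values is unknown here.

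The totals are a signal that the authors deposited, scaled reads summed over the libraries. The authors deposited each p-value with an adjusted one, and a recomputed Benjamini-Hochberg adjustment matched it within 3.3e-14. For G2 against G1 the adjustment was recomputed for 28997 genes from the p-values of the 15652 listed ones only. The match is a weaker check there. The adjusted p was blank for 14458 genes in G4 against G2 and 11245 in G4 against G3, and these stayed blank. The log2 fold changes the authors deposited were used as given, and the deposited signed fold changes were not used.

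The deposited p-values are the main test. No count test was run and no mouse left out, since only totals over all libraries are given. Implied standard errors are the log2 divided by the normal deviate of its p. Averages and the interaction used normal tests over genes with a total of at least 100, with values of G2 against G1 that are not listed rebuilt from the other 3 tables (all 6 members were listed). Rebuilding was tested on simulated data. Group levels split each total over 3 libraries a group by the log2 values, and the dispersion assumes a negative binomial fit with 1 dispersion per gene. Transcript length is that of the longest principal transcript in GENCODE M21, where 15177 of 15494 genes matched (98.0%). Similar transcripts were searched with blastn 2.17.0 at 85% identity and a word size of 28. Genes with an adjusted p under 0.05 are called. The p-values rest on 3 mice in each group, and the spread between mice cannot be read from them.

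The members, the gene lists and the rule for named genes were chosen with earlier results of these data known. The rule took all 6 members, up to 4 called genes per list and comparison by p and the list's largest absolute log2 among genes with a total of at least 600, Acaca, Acacb, Mlycd, Cpt1c, Crot, Ppara, Ppard and Ppargc1a, and the 3 nearest genes by pattern of each called member.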

Additional observations from a re-analysis of the deposited data

How the results depend on the processing

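Calls were repeated with p-values adjusted over every gene, over genes with a total of at least 100 and over genes with a total of at least 600, with log2 values centred on the median, with trends on transcript length, GC content and total removed, and with a minimum fold also required. The number of members called stayed within 1.5 times its main value under each of these; the adjustment over every gene, the trends and the minimum fold were run on the 4 deposited comparisons. No member changed direction, and 1 call changed, that of Crat in G4 against G2 (adjusted p = 0.0445 over genes with a total of at least 600). Alternatives chosen after seeing the data added Gm44502 to Cpt1b and Slc22a21 to Slc22a5, and all 8 log2 values moved by less than their standard error. Leaving out each mouse was not run, as only totals over all libraries are given. No paired analysis was possible because the labels pair no mice. The 95% intervals of Slc22a5 allow ratios of up to 1.41 in G3 against G1 and 1.38 in G4 against G2.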
